A study of Mus musculus with 2 samples.

Results

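The genes described here are 44 genes of DNA replication and S phase, out of 27998 genes listed in the files. They were chosen by function and sorted into 5 roles: 13 genes of origin licensing and firing, 15 of the polymerases, clamp and maturation of new strands, 6 of nucleotide supply and uracil removal, 7 of chromatin assembly and maintenance, and 3 of fork protection and licensing control. All 44 had an entry in the files. Hepatocytes, the main parenchymal cells of the liver, were isolated by 2-step collagenase perfusion from C57BL/6 mice (C57BL/6J in the study's methods) on a normal diet. The labels give the mice as 10 to 12 weeks old, while the study's methods name them as male and give a slightly younger age at surgery. Partial hepatectomy (PHx), an operation that takes out most liver lobes, starts regrowth of the remaining tissue. One library came from healthy, undamaged liver (0 h) and the other from liver 48 h after PHx (PHx48h), each from the cells of 1 mouse. In this droplet assay a barcode marks a droplet and a unique molecular identifier (UMI) marks a captured transcript molecule.

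DNA is copied once per cell cycle. In G1, Cdc6 and Cdt1 load the Mcm2 to Mcm7 helicase onto origins, and in S phase Cdc45 and the GINS complex turn the loaded rings into active helicases that unwind DNA ahead of the polymerases. Most of these genes are transcribed at the G1/S transition under E2F factors and are low in resting cells, and hepatocytes of the adult liver rest until tissue is lost.

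The undamaged library held 59202 barcodes with a median of 1436 UMIs, and the PHx48h library 1586 barcodes with a median of 6838.5 UMIs. Mitochondrial transcripts made up 6.24% of the UMIs at 0 h and 37.0% at 48 h. The libraries shared 148 barcode sequences, which were 0.25% of the barcodes at 0 h and 9.33% at 48 h. Levels were therefore compared within 3 sets of barcodes, in counts per 1e6 non-mitochondrial UMIs (CPM) summed over the barcodes of a set. Barcodes with more than 30% mitochondrial UMIs, called mitochondria-rich here, numbered 3859 at 0 h and 751 at 48 h. Barcodes with under 2%, called mitochondria-poor, numbered 52289 and 511. Non-hepatocyte barcodes, defined at any mitochondrial share by markers of macrophages, endothelial cells, stromal cells or other non-hepatocyte classes, numbered 777 and 129 and were left out of the other sets. With 1 library per time point there was no test, and every interval given is a 95% interval that covers counting error only.

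The label of hepatocytes was set beside 10 hepatocyte markers. All 10 were detected in every set, also in non-hepatocyte barcodes, so their detection alone does not tell hepatocytes apart. Their summed level was 106579 CPM at 0 h and 106179 CPM at 48 h in mitochondria-rich barcodes, and 89053 and 65781 CPM in mitochondria-poor barcodes. The macrophage, endothelial and stromal lists each summed to between 16.6 and 36.8 CPM in these sets. The erythroid list stood at 54.1 CPM at 0 h and 27.9 CPM at 48 h in mitochondria-rich barcodes, and at 89.0 and 28.3 CPM in mitochondria-poor barcodes. In non-hepatocyte barcodes hepatocyte markers stood at 54318 CPM at 0 h and 39040 CPM at 48 h. The other classes in that set differed between the time points. Macrophage markers were at 5257 and 2110 CPM, endothelial markers at 3489 and 3211 CPM, stromal markers at 2453 and 4912 CPM, MHC class II markers at 2388 and 395.1 CPM and erythroid markers at 6506 and 12.7 CPM. The part of this make-up in the ratios of the set was not tested. Markers of more than 1 non-hepatocyte class were found in 329 of the 777 non-hepatocyte barcodes at 0 h and in 59 of the 129 at 48 h. The part of free RNA or of droplets with more than 1 cell in these values was not tested.

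Nearly all replication genes were higher 48 h after PHx, and in each of the 3 sets. In mitochondria-rich barcodes the 44 genes together made up 210.8 CPM at 0 h and 995.1 CPM at 48 h, a ratio of 4.72 (interval 4.43 to 5.03). Mcm10 alone gave 41.2% of the member UMIs there at 0 h, and without it, a calculation added after its values were seen, the ratio was 7.70. In mitochondria-poor barcodes they summed to 182.9 and 1057 CPM, a ratio of 5.78 (5.56 to 6.00), or 6.99 without Mcm10. In non-hepatocyte barcodes they summed to 440.5 and 2198 CPM, a ratio of 4.99 (4.61 to 5.41), or 5.36 without Mcm10. The order of mitochondria-rich and mitochondria-poor barcodes thus rested on 1 gene. In mitochondria-rich barcodes Rrm2 and Mcm5 had the largest ratios among members with at least 5 UMIs at 0 h, and members with 2 UMIs or fewer there, such as Chaf1b, Gins2, Uhrf1 and Dtl, could not be ranked against them. The exception in every set was Mcm10.

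Counted gene by gene, 42 of the 44 members were at least 2-fold higher at 48 h in mitochondria-rich barcodes, where 31.1% of the 8507 genes with a mean of at least 5 CPM were past that fold. In mitochondria-poor barcodes the count was 41 of 44, beside 24.2% of 7458 genes. In non-hepatocyte barcodes it was 43 of 44, beside 19.7% of 10548 genes. Only Mcm10 in mitochondria-rich barcodes was at least 2-fold lower among the members in these sets. The share of all genes that were at least 2-fold lower was 5.18% in mitochondria-rich, 21% in mitochondria-poor and 10.8% in non-hepatocyte barcodes. The mean of 5 CPM was reached by 37, 34 and 42 members, and the members below it are included in the counts above. With 10 CPM added to both levels, which lowers the ratios of scarce genes, the counts past 2-fold were 24 and 23 in mitochondria-rich and mitochondria-poor barcodes.

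The median log2 ratio of the members was 2.94 in mitochondria-rich barcodes, 2.87 in mitochondria-poor and 2.53 in non-hepatocyte barcodes. With every member at the lower bound of its interval these medians were 1.96, 2.48 and 1.53. All genes together were also shifted, with median log2 ratios of 0.55, 0.04 and 0.21 in the same order. Relative to that shift the median member stood 2.38 higher on the log2 scale in mitochondria-rich, 2.83 in mitochondria-poor and 2.31 in non-hepatocyte barcodes. The order of the roles by median was not the same in the sets, but the polymerases and clamp genes had the lowest median in each.

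**Figure D1:**
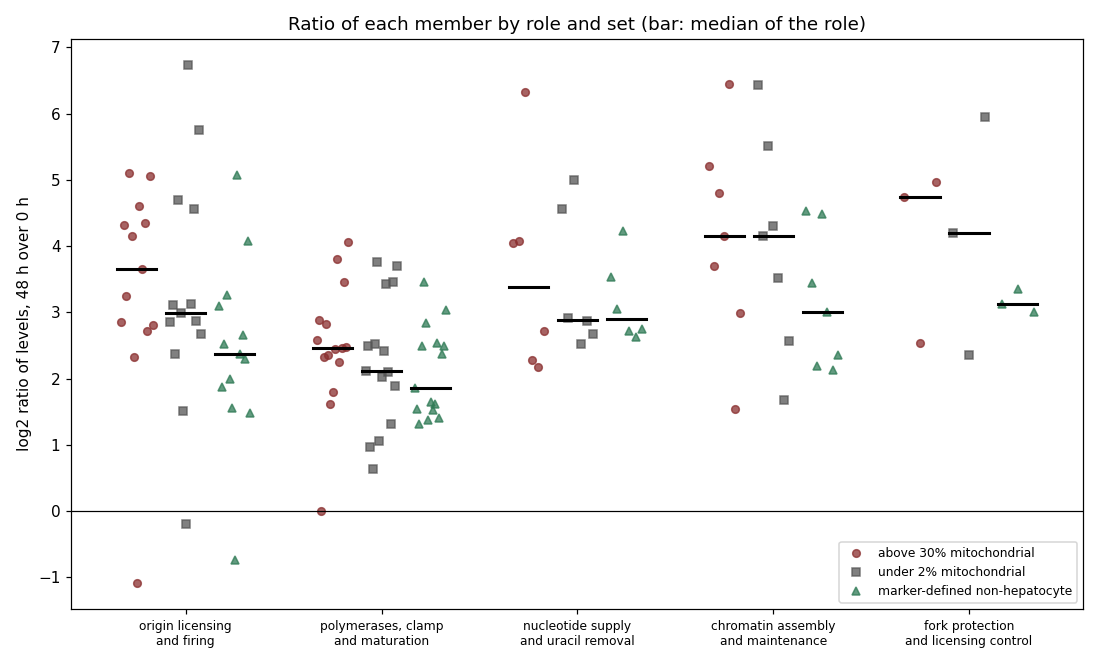
Log2 ratio of the level at 48 h over that at 0 h for each of the 44 members, by role, in mitochondria-rich (circles), mitochondria-poor (squares) and non-hepatocyte (triangles) barcodes, with black bars at the median of each role and zeros at 0 h set to 3 UMIs. All points lie above 0 except Mcm10 in each set and Pola2 at 0.00 in mitochondria-rich barcodes, and the medians of the polymerase role are 2.46, 2.12 and 1.86.

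The 6 subunits of the replicative helicase, Mcm2 to Mcm7, were all higher at 48 h in all 3 sets. Mcm5 had the largest ratio of the 6 in each set: its level was 1.22 CPM at 0 h and 41.7 CPM at 48 h in mitochondria-rich barcodes, 1.06 and 27.6 CPM in mitochondria-poor barcodes, and 8.08 and 77.5 CPM in non-hepatocyte barcodes. These were ratios of 34.3 (16.3 to 86.3), 26 (19.0 to 35.6) and 9.59 (5.53 to 17.7). Mcm6 stood at 2.95 and 52.4 CPM in mitochondria-rich barcodes (17.7-fold, 10.9 to 30.9), 4.21 and 33.5 CPM in mitochondria-poor barcodes and 20.2 and 80.7 CPM in non-hepatocyte barcodes. Mcm3 was unlike the others in its level outside hepatocytes at 0 h, where non-hepatocyte barcodes held 25.8 CPM against 0.869 CPM in mitochondria-rich and 2.04 CPM in mitochondria-poor barcodes. By 48 h Mcm3 stood at 94.5, 17.4 and 17.6 CPM in the same order, so that its ratio was 3.67 (2.57 to 5.28) in non-hepatocyte and 20.02 (8.25 to 63.2) in mitochondria-rich barcodes. Mcm7 had the smallest ratio of the 6 in each set, at 5.02, 2.84 and 2.94 in the order of the sets above. Mcm2 and Mcm4 lay between them, with log2 ratios from 2.37 to 3.24.

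The loaders and activators of the helicase were low in undamaged liver, and their ratios rest on few molecules at 0 h. Cdc6, an ATPase that brings the helicase to origins, had 1 UMI at 0 h and 21 at 48 h in mitochondria-rich barcodes, 5 and 21 in mitochondria-poor barcodes, and 1 and 16 in non-hepatocyte barcodes. The mitochondria-poor barcodes gave the most molecules at 0 h and a ratio of 107 (39.1 to 362), as levels of 0.0640 and 6.83 CPM. Cdt1, its partner in loading, was at 1.22 and 15.4 CPM in mitochondria-rich barcodes, 1.89 and 16.6 CPM in mitochondria-poor barcodes and 5.56 and 28.7 CPM in non-hepatocyte barcodes. Cdc45, which joins the helicase at firing, stood at 0.371 and 8.78 CPM in mitochondria-poor barcodes, a ratio of 23.6 (13.5 to 41.4). In non-hepatocyte barcodes Cdc45 had 0 UMIs at 0 h and 9 at 48 h. With the count at 0 h set to 3 UMIs the ratio was 6.31, which is a set value and not a lower bound.

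Of the GINS subunits, which complete the active helicase with Cdc45, Gins2 differed most. Its level was 0.615 CPM at 0 h and 33.2 CPM at 48 h in mitochondria-poor barcodes (54.0-fold, 37.9 to 77.7) and 0.348 and 11.5 CPM in mitochondria-rich barcodes. In non-hepatocyte barcodes Gins2 was at 1.52 and 25.5 CPM. At 48 h its levels in mitochondria-poor and non-hepatocyte barcodes were not separated by their counting error (ratio 0.769, 0.471 to 1.21), and its level in mitochondria-rich barcodes was lower than in mitochondria-poor ones. Gins1 was 6.55-fold, 7.30-fold and 4.91-fold higher at 48 h in mitochondria-rich, mitochondria-poor and non-hepatocyte barcodes. Gins3 was the least abundant of the 3, with 18, 5 and 4 UMIs at 48 h in the same order and 3, 20 and 0 UMIs at 0 h.

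Mcm10, which bridges the helicase and polymerase alpha, did not follow the other licensing genes. In mitochondria-rich barcodes it had 500 UMIs (86.9 CPM) at 0 h and 202 UMIs (40.9 CPM) at 48 h, a ratio of 0.470 (0.397 to 0.555). In mitochondria-poor barcodes its level was 36.2 CPM at 0 h and 31.5 CPM at 48 h (0.872, 0.705 to 1.07). In non-hepatocyte barcodes it was 33.8 and 20.2 CPM (0.596, 0.338 to 1.005). The interval reached 1 in the latter sets, and the log2 ratio was below 0 under each of 4 scalings of the totals in all 3 sets, from -1.64 to -0.20. At 0 h, Mcm10 gave 41.2% of all member UMIs in mitochondria-rich, 19.8% in mitochondria-poor and 7.68% in non-hepatocyte barcodes, and at 48 h 4.11%, 2.98% and 0.918%. Without Mcm10 the summed level ratio of the other 43 members was 7.70 (7.12 to 8.34) in mitochondria-rich, 6.99 (6.72 to 7.27) in mitochondria-poor and 5.36 (4.94 to 5.82) in non-hepatocyte barcodes. No coding gene overlapped Mcm10 in the annotation used. The counts do not show which part of the gene these UMIs came from, so the level at 0 h was not checked against reads.

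**Figure D2:**
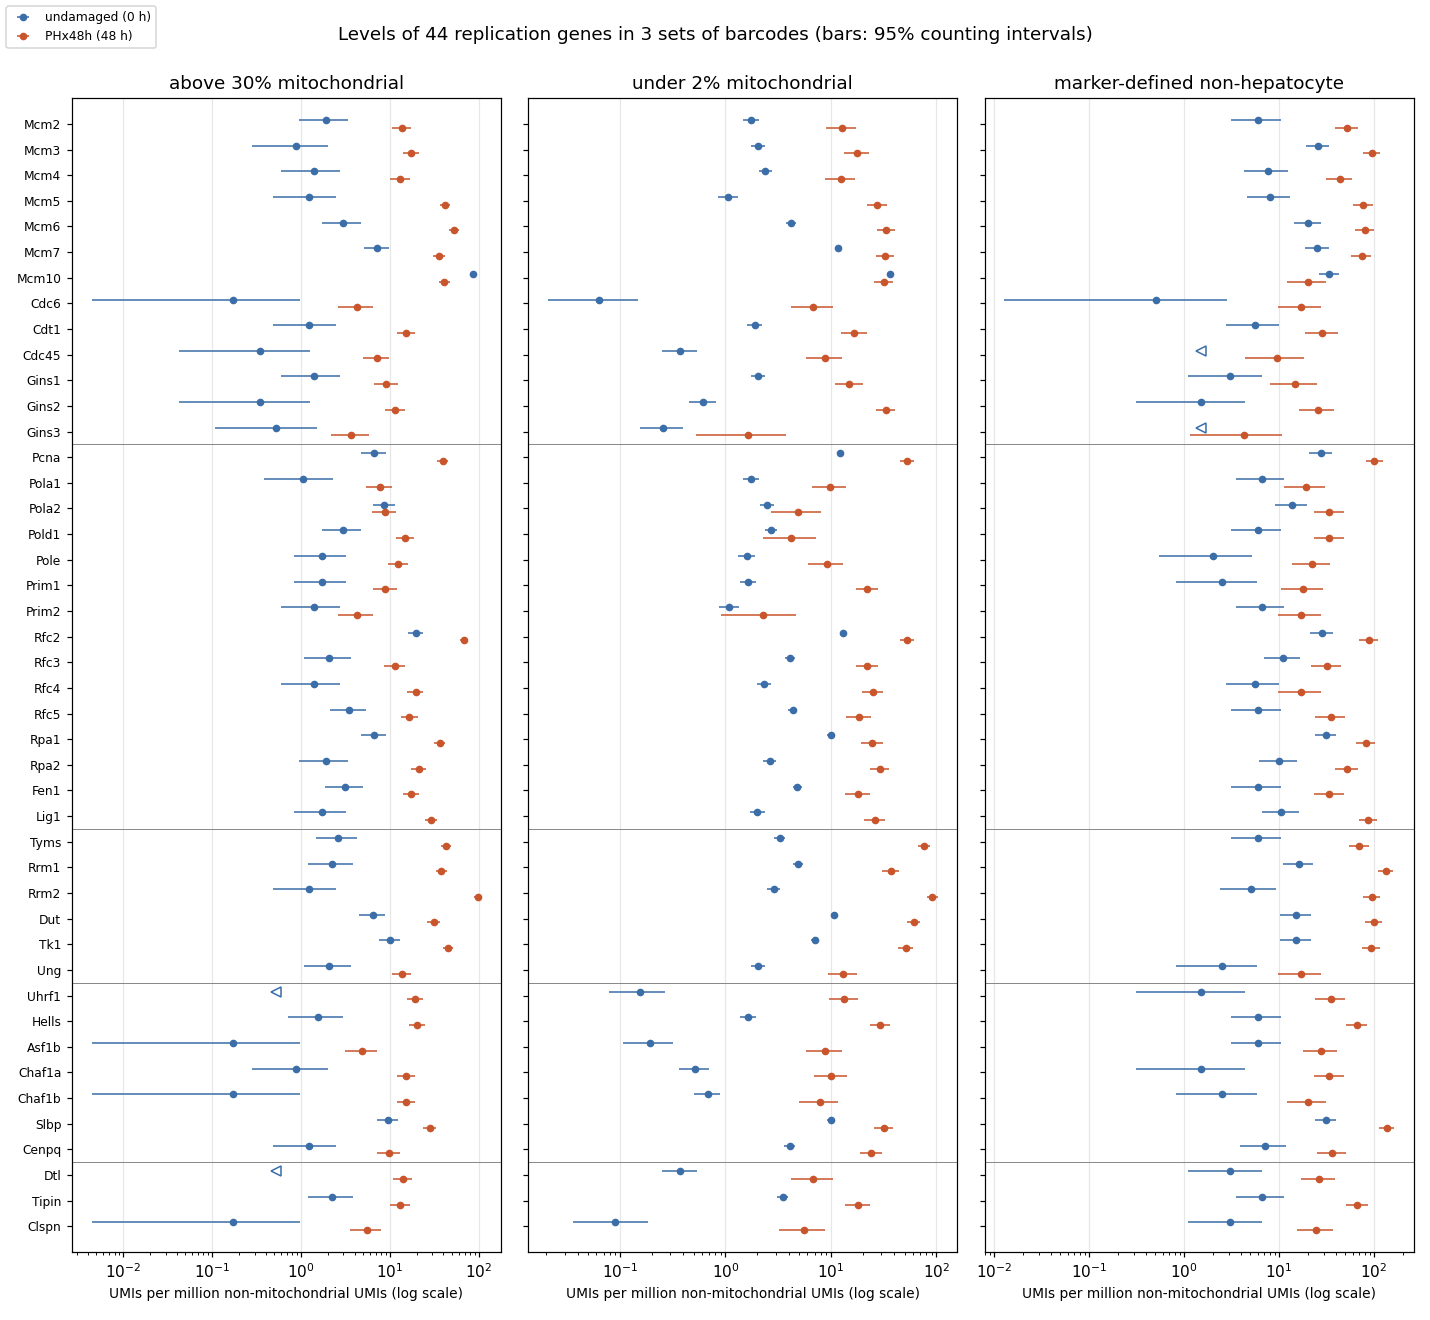
Level of each member at 0 h (blue) and 48 h (orange) in CPM on a log axis, in the 3 sets, with 95% counting intervals. Open triangles mark genes with 0 UMIs, drawn at 3 UMIs, and horizontal lines divide the roles. The orange points stand to the right of the blue ones for 43 of the 44 genes in each set, with Pola2 level in mitochondria-rich barcodes, and Mcm10 is reversed, at 86.9 and 40.9 CPM in mitochondria-rich barcodes.

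Among the polymerases and the factors that act with them, the ratios were smaller. Pcna, the sliding clamp, was at 6.60 CPM at 0 h and 39.7 CPM at 48 h in mitochondria-rich barcodes, 12.1 and 52.7 CPM in mitochondria-poor barcodes and 27.8 and 100.9 CPM in non-hepatocyte barcodes. Those were ratios of 6.00 (4.22 to 8.74), 4.35 (3.66 to 5.14) and 3.63 (2.58 to 5.16), whose intervals overlapped. The subunits of the clamp loader differed in size, from Rfc2 at 3.49-fold to Rfc4 at 14.0-fold in mitochondria-rich barcodes, with Rfc3 at 5.43-fold and Rfc5 at 4.77-fold. Rfc2 stood at 19.5 and 68.0 CPM there, 12.9 and 52.7 CPM in mitochondria-poor barcodes and 28.3 and 88.1 CPM in non-hepatocyte barcodes.

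The subunits of polymerase alpha and primase, which lay down the primers of new strands, did not move as a block. Pola2, the regulatory subunit, was at 8.69 CPM at 0 h and 8.70 CPM at 48 h in mitochondria-rich barcodes, a ratio of 1.001 (0.650 to 1.54), and its log2 ratio was between -0.55 and 0.00 under the 4 scalings. In mitochondria-poor barcodes Pola2 stood at 2.48 and 4.88 CPM (1.96, 1.08 to 3.32), and in non-hepatocyte barcodes at 13.6 and 34.0 CPM (2.49, 1.45 to 4.32). Pola1, the catalytic subunit, was 7.37-fold, 5.60-fold and 2.91-fold higher at 48 h in the order of the sets. Of the primase subunits, Prim1, which is catalytic, was 5.12-fold, 13.5-fold and 7.15-fold higher, and Prim2, the large subunit, 3.06-fold, 2.09-fold and 2.59-fold higher, with an interval that reached below 1 (0.816 to 4.5) in mitochondria-poor barcodes. Pold1, the catalytic subunit of polymerase delta, was at 2.95 and 14.8 CPM in mitochondria-rich barcodes (5-fold, 2.92 to 9.04) and at 2.71 and 4.23 CPM in mitochondria-poor barcodes, where its ratio of 1.56 (0.816 to 2.72) did not leave 1. Pole, the catalytic subunit of polymerase epsilon, was 7.10-fold, 5.73-fold and 11-fold higher at 48 h.

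Genes that process and join the new strands were higher in each set. Lig1, the ligase that seals Okazaki fragments, was at 1.74 and 29.1 CPM in mitochondria-rich barcodes (16.8-fold, 8.85 to 35.7), 2.01 and 26 CPM in mitochondria-poor barcodes and 10.6 and 87.1 CPM in non-hepatocyte barcodes. Fen1, the flap nuclease that acts before it, was 5.56-fold, 3.71-fold and 5.61-fold higher. Rpa2, of the single-strand binding complex, was 11-fold, 11-fold and 5.15-fold higher, and Rpa1, of the same complex, 5.51-fold, 2.48-fold and 2.65-fold higher.

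The 6 genes of nucleotide supply and uracil removal were all higher at 48 h in every set, by 4.53-fold or more, and their summed level was 11-fold (9.20 to 13.1), 10.7-fold (9.97 to 11.6) and 8.46-fold (6.91 to 10.4) higher. Rrm2, the small subunit of ribonucleotide reductase, which limits the supply of deoxynucleotides, had the largest ratio of the role in each set. Its level was 1.22 CPM at 0 h and 97.5 CPM at 48 h in mitochondria-rich barcodes, 2.87 and 91.4 CPM in mitochondria-poor barcodes and 5.05 and 94.5 CPM in non-hepatocyte barcodes. The 3 levels at 48 h lay between 91.4 and 97.5 CPM, and the ratios were 80.1 (38.6 to 200), 31.9 (26.6 to 38.1) and 18.7 (9.71 to 40.4). Rrm1, the large subunit of the same enzyme, was at 2.26 and 38.0 CPM, 4.89 and 36.7 CPM, and 16.2 and 134 CPM in the order of the sets. Tyms, which makes thymidylate, was at 2.61 and 43.1 CPM in mitochondria-rich barcodes, 3.26 and 76.7 CPM in mitochondria-poor barcodes and 6.06 and 70.1 CPM in non-hepatocyte barcodes. Dut, which removes dUTP, was 4.84-fold, 5.74-fold and 6.59-fold higher at 48 h. Tk1, the salvage kinase for thymidine, was 4.53-fold, 7.32-fold and 6.17-fold higher, and Ung, the glycosylase that removes uracil from DNA, 6.60-fold, 6.35-fold and 6.73-fold.

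Genes that rebuild chromatin behind the fork had larger medians than the roles above, with log2 ratios of 4.15, 4.16 and 3 in the order of the sets. Uhrf1, which reads hemimethylated DNA and brings in the maintenance methyltransferase, had 0 UMIs at 0 h and 95 UMIs (19.2 CPM) at 48 h in mitochondria-rich barcodes. With the count at 0 h set to 3 UMIs its ratio was 36.9, which is not a lower bound. In mitochondria-poor barcodes Uhrf1 stood at 0.154 and 13.3 CPM, from 12 and 41 UMIs (86.8-fold, 44.7 to 181), and in non-hepatocyte barcodes at 1.52 and 35.0 CPM, from 3 and 33 UMIs. Hells, a chromatin remodeler of the Snf2 family, was at 1.56 and 20.2 CPM, 1.64 and 29.3 CPM, and 6.06 and 65.8 CPM in the same order. Chaf1a and Chaf1b, subunits of the chromatin assembly factor CAF-1, were at 0.512 and 10.1 CPM and at 0.679 and 7.80 CPM in mitochondria-poor barcodes. In mitochondria-rich barcodes Chaf1b rested on 1 UMI at 0 h and 75 at 48 h (ratio 87.3, 15.2 to 3493) and Chaf1a on 5 and 76. Asf1b, the histone chaperone that hands histones to CAF-1, was at 0.192 and 8.78 CPM in mitochondria-poor barcodes (45.7-fold, 23.5 to 92.4) but already at 6.06 CPM at 0 h in non-hepatocyte barcodes, where it reached 27.6 CPM. Slbp, which binds the stem loop of histone mRNAs, had the smallest ratios of the role, at 2.92, 3.20 and 4.37. Cenpq, of the inner kinetochore, was 7.98-fold, 5.93-fold and 5.11-fold higher.

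The 3 genes of fork protection and licensing control were scarce at 0 h. Dtl, the adaptor that sends Cdt1 to degradation in S phase, had 0 UMIs at 0 h and 69 UMIs (14.0 CPM) at 48 h in mitochondria-rich barcodes. With the count at 0 h set to 3 UMIs its ratio was 26.8, which is not a lower bound. Dtl stood at 0.371 and 6.83 CPM in mitochondria-poor barcodes and 3.03 and 26.6 CPM in non-hepatocyte barcodes. Clspn, the mediator between stalled forks and the checkpoint kinase Chk1, had 1 and 27 UMIs in mitochondria-rich barcodes, 7 and 17 UMIs in mitochondria-poor barcodes (61.7-fold, 24.3 to 176) and 6 and 23 UMIs in non-hepatocyte barcodes. Tipin, of the fork protection complex, was 5.82-fold, 5.12-fold and 10.2-fold higher.

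The ratios of a gene mostly overlapped between the sets. Between mitochondria-rich and mitochondria-poor barcodes the intervals overlapped for 37 of the 44 members. The ratio was larger in mitochondria-rich barcodes for Mcm6, Mcm7, Pold1, Rpa1, Rrm1 and Rrm2 and smaller for Mcm10. Against non-hepatocyte barcodes, mitochondria-rich barcodes had the larger ratio for Mcm3, Mcm6 and Rpa1, and the intervals of the other 41 overlapped. Mitochondria-poor barcodes had the larger ratio than non-hepatocyte barcodes for Mcm3, Mcm5, Mcm6, Rfc4, Asf1b and Clspn and the smaller one for Pold1. These were comparisons of counting intervals and not tests. No share of all genes with intervals apart is given, so the counts are not a trait particular to the members. The median log2 ratio of all genes also differed between the sets, at 0.55 in mitochondria-rich, 0.04 in mitochondria-poor and 0.21 in non-hepatocyte barcodes.

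Within the PHx48h library the levels of mitochondria-rich and mitochondria-poor barcodes were close, with a median ratio of 0.990 over the members and 38 of 44 within 2-fold. The same figures for all genes are not given, so whether the members were more or less even than other genes is not shown. Levels in mitochondria-rich barcodes were the lower by more than 2-fold for Gins2 (0.348, 0.247 to 0.486), Prim1 (0.403) and Cenpq (0.404) and the higher for Pold1 (3.49, 1.92 to 6.87), Gins3 (2.24, 0.802 to 7.72) and Dtl (2.04). Non-hepatocyte barcodes stood above both, with a median ratio of 2.21 to mitochondria-rich and 2.34 to mitochondria-poor barcodes. Their excess at 48 h over mitochondria-rich barcodes was largest for Asf1b (5.69, 3.14 to 10.3), Mcm3 (5.43), Tipin (5.09) and Slbp (4.91). Rrm2 was as high in mitochondria-rich as in non-hepatocyte barcodes (0.969, 0.764 to 1.22), and Mcm10 was lower in non-hepatocyte barcodes (0.494, 0.291 to 0.791).

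In the undamaged library the same order was found. With a count of 0 set to 3 UMIs, non-hepatocyte barcodes held 43 of the 44 members at a higher level than mitochondria-rich barcodes. The median ratio was 3.94. Against mitochondria-poor barcodes the count was also 43, with a median ratio of 3.05. The 43 include Cdc45 and Gins3, which had 0 UMIs in non-hepatocyte barcodes, so their observed levels were lower there in both comparisons. Mcm10 was lower without that setting in both (0.389, 0.297 to 0.503, and 0.936, 0.723 to 1.19). No share of all genes higher in non-hepatocyte barcodes is given beside this count. Hepatocyte markers took less of the total there, at 54318 CPM against 106579 CPM in mitochondria-rich and 89053 CPM in mitochondria-poor barcodes. The part of this in the ratios was not tested. Between mitochondria-rich and mitochondria-poor barcodes at 0 h, the interval of the ratio left 1 for 4 members above it and 8 below it. Pola2 (3.50, 2.51 to 4.80), Mcm10 (2.40, 2.18 to 2.64), Rfc2 and Tk1 were higher in the former. Cenpq (0.300, 0.120 to 0.625), Rrm2 (0.424, 0.169 to 0.889), Rrm1 (0.462, 0.244 to 0.800), Mcm7, Pcna, Rfc3, Rpa1 and Dut were lower. The share of all genes whose interval left 1 is not given, so these counts do not set the members apart from other genes.

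The summed level of the members varied far less with the mitochondrial share inside a library than between the libraries. At 48 h it was 1057 CPM in barcodes under 2%, 969.7 CPM from 2 to 30%, 1073 CPM from 30 to 50%, 922.0 CPM from 50 to 70% and 999.4 CPM (877 to 1134) over 70%. At 0 h it was 182.9, 193.7, 207.7 and 220.9 CPM in the first 4 of these bins, and the last held 18 barcodes and 1 member UMI. The 23 mitosis genes, listed for comparison, were less even at 48 h, from 1059 CPM under 2% to 619.4 CPM over 70%. Among the non-hepatocyte classes at 48 h, the members summed to 2242 CPM in 39 barcodes with macrophage markers, 2257 CPM in 83 with endothelial markers and 2432 CPM in 71 with stromal markers, with overlapping membership. The corresponding levels at 0 h were 523.9, 458.0 and 437.4 CPM. The 9 barcodes with MHC class II markers stood lower at 48 h, at 1173 CPM (893 to 1514).

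**Figure D3:**
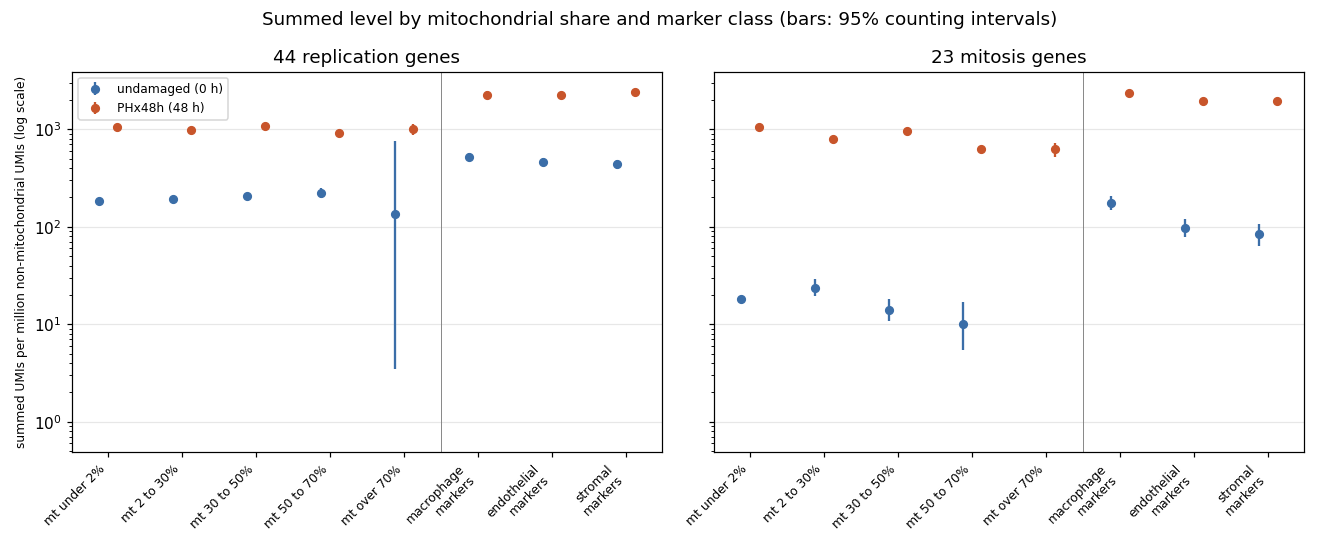
Summed level of the 44 members (left) and of 23 mitosis genes (right) at 0 h (blue) and 48 h (orange) by mitochondrial share and marker class, on a log axis, with 95% counting intervals. The members stand between 922.0 and 1073 CPM in all bins of mitochondrial share at 48 h and between 2242 and 2432 CPM in the 3 marker classes drawn. No point is drawn for mitosis genes over 70% at 0 h, where there were 0 UMIs.

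To compare barcodes of unlike depth, each was thinned to 1000 non-mitochondrial UMIs, which left out 1398 mitochondria-rich barcodes and 1 non-hepatocyte barcode at 0 h and 4 mitochondria-rich barcodes at 48 h. At least 3 member UMIs were then found in 0.284% of mitochondria-rich barcodes at 0 h (7 of 2461, 0.114 to 0.585%) and 8.43% at 48 h (63 of 747, 6.54 to 10.7%). In mitochondria-poor barcodes the shares were 0.134% (70 of 52289) and 7.83% (40 of 511, 5.65 to 10.5%). In non-hepatocyte barcodes they were 1.29% (10 of 776) and 27.9% (36 of 129, 20.4 to 36.5%). Without thinning the shares at 48 h were 63.8%, 86.5% and 93.8%, at median depths of 4271, 5274 and 6176 non-mitochondrial UMIs, and those at 0 h 1.09%, 0.426% and 11.8%, at 1213, 1412 and 2263. In mitochondria-rich and mitochondria-poor barcodes Rrm2 was the member found in the most barcodes at 48 h, with a UMI in 9.37% of thinned mitochondria-rich and 8.41% of thinned mitochondria-poor barcodes, but in non-hepatocyte barcodes Slbp was, at 10.9% (14 of 129), against 4.65% for Rrm2. At 0 h the member found most was Mcm10 in mitochondria-rich and mitochondria-poor barcodes, at 7.84% and 3.53%. No set known to lack these transcripts was at hand to measure the share that free RNA gives.

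The member UMIs were not spread alike over the barcodes of the sets. For counts drawn at 1 common rate the variance equals the mean. At 48 h the variance over the mean of member UMIs per thinned barcode was 0.979 in mitochondria-poor, 1.34 in mitochondria-rich and 2.05 in non-hepatocyte barcodes. At 0 h it was 1.03, 1.03 and 1.30. The means in the same order were 0.971, 0.940 and 1.96 member UMIs at 48 h and 0.180, 0.205 and 0.415 at 0 h. For the same relative spread between barcodes this measure rises with the mean. Values at unlike means, such as those of the 2 time points, therefore do not show which was more even. Among the 63 mitochondria-rich barcodes with at least 3 member UMIs at 48 h, 12.7% also had at least 3 UMIs of mitosis genes (5.65 to 23.5%), against 6.43% of the other barcodes (4.71 to 8.54%). In non-hepatocyte barcodes these shares were 33.3% (18.6 to 51.0%) and 19.4% (11.9 to 28.9%), and in mitochondria-poor barcodes 10.0% (2.79 to 23.7%) and 8.92% (6.50 to 11.9%). The intervals overlapped in each set.

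**Figure D4:**
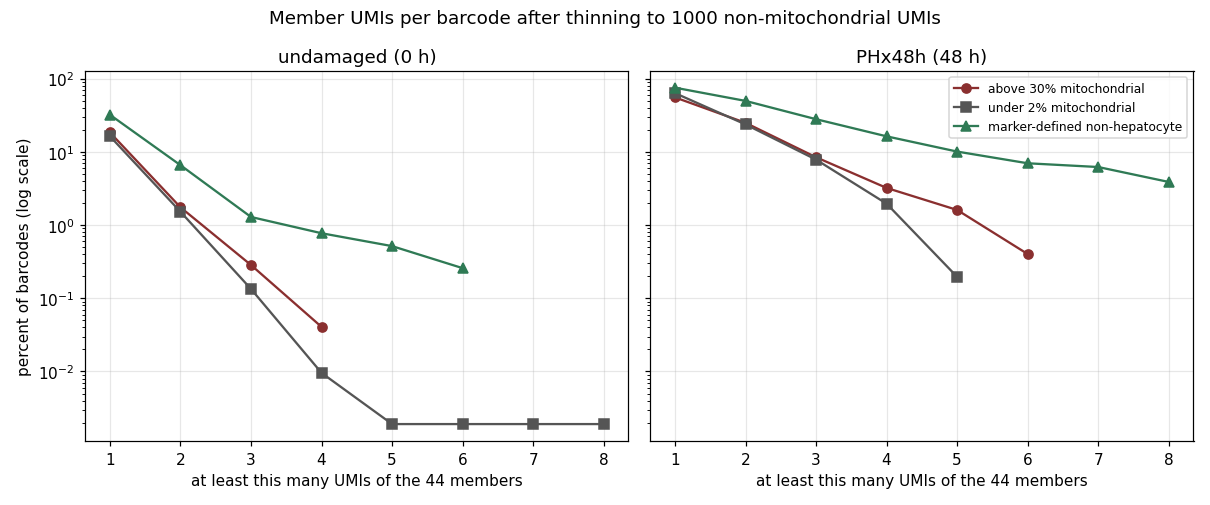
Percent of barcodes, on a log axis, with at least the given number of UMIs of the 44 members after thinning to 1000 non-mitochondrial UMIs, in the undamaged (left) and PHx48h (right) library. At 3 or more UMIs the mitochondria-rich, mitochondria-poor and non-hepatocyte sets stand at 0.284%, 0.134% and 1.29% at 0 h and at 8.43%, 7.83% and 27.9% at 48 h.

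Further genes of the same pathways were also mostly higher at 48 h, with lower medians than the members in the licensing, polymerase, nucleotide and chromatin lists. The counts below leave out genes with 3 UMIs or fewer in both libraries of a set and stand in the order mitochondria-rich, mitochondria-poor and non-hepatocyte. The shares of all genes past 2-fold were 31.1%, 24.2% and 19.7%. Those shares cover only genes with a mean of at least 5 CPM, while the counts below include scarcer genes, so the 2 are not on the same footing. Genes at least 2-fold lower were picked after their values were seen, while the highest and lowest genes named for mitochondria-rich barcodes are those among genes with a mean of at least 5 CPM there. Of the other licensing and firing genes, 10 of 17, 7 of 14 and 9 of 15 were at least 2-fold higher, with median log2 ratios of 2.22, 0.87 and 1.35, and Orc5 (0.255, 0.127 to 0.458) and Donson (107 and 2 UMIs, 0.475, 0.0567 to 1.76) were at least 2-fold lower in mitochondria-poor barcodes. In mitochondria-rich barcodes Gmnn, the inhibitor of Cdt1, was the highest at 1.39 and 20.8 CPM (15-fold, 7.33 to 35.6), followed by Wdhd1 (8.15-fold) and Gins4 (6.77-fold), while Orc5, of the origin recognition complex, was the lowest at 10.3 and 8.09 CPM (0.789, 0.515 to 1.20). Of the 15 other polymerase and fork genes, 11, 12 and 12 were at least 2-fold higher and none at least 2-fold lower, with medians of 1.71, 1.62 and 1.52. Rnaseh2b (6.75-fold) and Rnaseh2c (4.83-fold), of the nuclease that removes ribonucleotides from DNA, and Pold3 (3.71-fold) were the highest of those with a mean of at least 5 CPM in mitochondria-rich barcodes, and Dna2 (1.52-fold) was the lowest of them.

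Of the other nucleotide genes, 11 of 13, 5 of 13 and 5 of 12 were at least 2-fold higher, with median log2 ratios of 1.56, 0.83 and 0.57. Cad, of pyrimidine synthesis, was at least 2-fold lower in mitochondria-poor barcodes (0.349, 0.127 to 0.765) and Samhd1, which degrades deoxynucleotides, in non-hepatocyte barcodes (0.394, 0.277 to 0.550). In mitochondria-rich barcodes Dtymk, thymidylate kinase, was at 10.8 and 54.2 CPM (5.03-fold, 3.80 to 6.74) and Gmps, GMP synthetase, was 4.71-fold higher, and Samhd1 stood at 1.36-fold (0.906 to 2.06). Of the 12 other chromatin genes, 10, 7 and 10 were at least 2-fold higher and none at least 2-fold lower, with medians of 2.03, 1.38 and 1.70. The highest in mitochondria-rich barcodes were the gene listed as 2810417H13Rik, an older name of Pclaf, a PCNA-binding protein (22.9-fold, 7.46 to 114), Cenpa (13.3-fold) and H2afz (6.76-fold). Rbbp4, a histone-binding subunit of several chromatin complexes, was lower, at 91.3 and 53.0 CPM (0.581, 0.499 to 0.675).

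Of the 21 G1/S regulators, 14 of 20, 13 of 20 and 15 of 20 were at least 2-fold higher, and Rbl2, a pocket protein, was at least 2-fold lower in mitochondria-poor barcodes (0.312, 0.170 to 0.526). In mitochondria-rich barcodes Ccna2, cyclin A, had 0 UMIs at 0 h and 132 at 48 h. Its ratio was 51.2 with 3 UMIs set at 0 h, and the lower bound of its interval was 41.1. Ccnd1, cyclin D1, was at 4 and 187 CPM there (46.8-fold, 31.0 to 74.2). Ccne1, cyclin E1, was 16.3-fold higher, and Rbl2 was at 0.868 (0.582 to 1.29). Of the 13 checkpoint and fork repair genes, 10 of 12, 6 of 12 and 9 of 12 were at least 2-fold higher and Rad17 at least 2-fold lower in mitochondria-poor barcodes (0.443, 0.228 to 0.779). The higher ones included, in mitochondria-rich barcodes, Brca2 (3.49-fold) and Atr (2.17-fold). Rad9a was at 1.10-fold (0.661 to 1.82). All 23 mitosis genes were at least 2-fold higher in each set, with median log2 ratios of 5.53, 5.25 and 4.05. Top2a (1 and 252 UMIs), Ube2c (3 and 381 UMIs) and Mki67 (5 and 368 UMIs) were the highest of the 20 with a mean of at least 5 CPM in mitochondria-rich barcodes, and Cenpf, at 13-fold (6.01 to 33.3), the lowest of these.

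The promoters of the members were examined for short words of cell cycle factors, since the members were higher together. RefSeq windows of GRCm38.p6, from 250 bases before to 50 bases after the start, were at hand for 37 of the 44 genes, as 42 windows. An E2F word (TTTGGCGC, TTTCGCGC, TTTCCCGC or TTTGCCGC, on either strand) was held by 15 of the 42 windows (35.7%), each of a different gene, against 2.26% of all 32851 windows and 1 of 20 windows of mitosis genes. The 15 genes were Mcm3, Mcm5, Mcm6, Mcm7, Cdc6, Cdt1, Gins3, Pola1, Pold1, Rfc3, Lig1, Uhrf1, Hells, Dtl and Clspn. CCAAT, on either strand, was in 59.5% of member windows, 90% of mitosis windows and 37.4% of all windows. The CHR words TTTGAA and TTCGAA, of the element found in many genes of mitosis, were in 16.7%, 80% and 19.2%. A word is a match of letters and not a bound site, and a window without one says only that these letters are not in it.

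**Figure D5:**
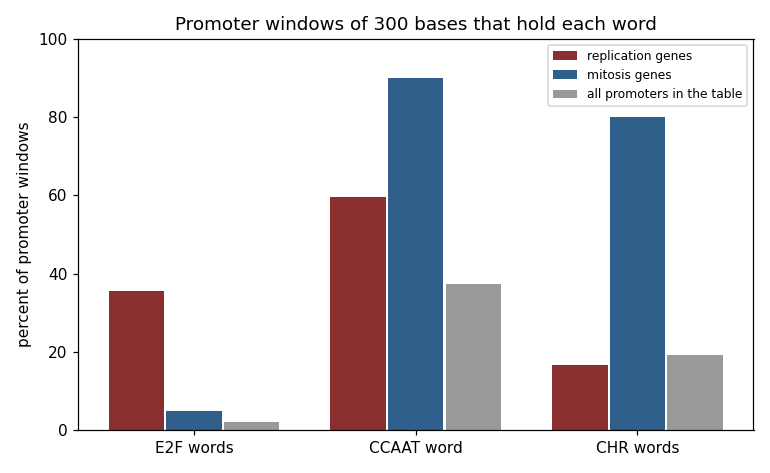
Percent of promoter windows of 300 bases that hold an E2F word, CCAAT or a CHR word on either strand, for 42 windows of replication genes, 20 of mitosis genes and all 32851 windows. E2F words stand at 35.7% in replication genes and 5% in mitosis genes, and CHR words at 16.7% and 80%.

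The windows of 5 members are printed 5′ to 3′ on the strand of the gene, with E2F words in capitals. Mcm6 (chr1:128359656-128359955, minus strand), Mcm5 (chr8:75109259-75109558, plus strand) and Hells (chr19:38930740-38931039, plus strand) hold such words, 3, 2 and 1 in number, and in Mcm6 and Mcm5 words on opposite strands overlap. Rrm2 (chr12:24708004-24708303, plus strand) and Mcm10 (chr2:5012742-5013041, minus strand) hold none and are shown because they had the largest ratio among members with at least 5 UMIs at 0 h and the lowest ratio in mitochondria-rich barcodes. The Mcm10 window ends in the word TTTGGCGC without its last letter, and the base past the window edge was not examined.
Mcm6: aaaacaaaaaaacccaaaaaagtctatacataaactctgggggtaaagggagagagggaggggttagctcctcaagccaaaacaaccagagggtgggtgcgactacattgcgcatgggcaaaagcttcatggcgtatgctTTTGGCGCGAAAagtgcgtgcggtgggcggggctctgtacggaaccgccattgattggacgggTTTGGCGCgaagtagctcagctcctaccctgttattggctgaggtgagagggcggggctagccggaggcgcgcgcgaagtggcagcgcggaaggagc
Mcm5: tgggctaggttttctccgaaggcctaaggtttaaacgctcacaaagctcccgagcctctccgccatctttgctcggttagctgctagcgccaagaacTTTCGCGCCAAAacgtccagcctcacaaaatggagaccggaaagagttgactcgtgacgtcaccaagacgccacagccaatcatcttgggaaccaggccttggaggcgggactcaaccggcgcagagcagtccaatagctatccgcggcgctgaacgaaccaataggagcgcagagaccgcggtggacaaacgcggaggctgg
Hells: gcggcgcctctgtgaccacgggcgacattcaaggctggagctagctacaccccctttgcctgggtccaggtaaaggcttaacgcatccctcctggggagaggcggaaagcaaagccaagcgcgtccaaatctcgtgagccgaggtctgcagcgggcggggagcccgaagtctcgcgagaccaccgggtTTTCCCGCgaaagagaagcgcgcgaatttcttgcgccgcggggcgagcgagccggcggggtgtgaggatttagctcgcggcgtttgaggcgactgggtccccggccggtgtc
Rrm2: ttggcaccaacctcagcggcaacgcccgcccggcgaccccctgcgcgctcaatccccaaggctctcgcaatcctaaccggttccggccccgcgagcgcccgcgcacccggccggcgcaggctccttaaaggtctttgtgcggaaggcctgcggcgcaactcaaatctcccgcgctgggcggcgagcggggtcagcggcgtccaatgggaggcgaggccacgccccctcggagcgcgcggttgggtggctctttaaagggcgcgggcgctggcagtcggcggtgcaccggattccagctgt
Mcm10: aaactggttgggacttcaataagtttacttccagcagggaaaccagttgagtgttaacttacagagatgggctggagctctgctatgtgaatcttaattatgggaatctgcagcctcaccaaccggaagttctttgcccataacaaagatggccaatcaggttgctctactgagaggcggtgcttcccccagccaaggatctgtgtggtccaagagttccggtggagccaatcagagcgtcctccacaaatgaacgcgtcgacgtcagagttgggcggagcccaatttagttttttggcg

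The members with an E2F word did not stand apart in every set. Their median log2 ratio was 4.07 in mitochondria-rich barcodes against 2.78 for the 22 members whose windows held none. In mitochondria-poor barcodes these medians were 3.13 and 2.86, and in non-hepatocyte barcodes 2.49 and 2.58. The ranges overlapped in each set, and Rrm2, with 6.32 on the log2 scale in mitochondria-rich barcodes, was among the members without a word.

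Some members share transcribed sequence with neighbours in GENCODE M21. On the opposite strand a coding gene overlapped 11 members: Mcm7, Cdc45, Gins2, Rfc2, Rfc4, Rfc5, Fen1, Lig1, Tk1, Chaf1a and Cenpq. On the same strand 1 member, Cdt1, overlapped Gm20388. Whether the counting used strand is not given in the sources used here, so UMIs of the 11 members may include those of the neighbour. How UMIs from the stretch shared by Cdt1 and Gm20388 were counted is not given there either.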

How the data were processed

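Single-cell 3′ libraries (10x Genomics, version 2 chemistry) of 2 hepatocyte preparations were used. Reads were run through Cell Ranger by the authors, who deposited raw UMI counts for each gene in each barcode, in whole numbers. The submitters' processing notes name mm10, and the Cell Ranger version, the annotation and the strand setting are not given in the sources used here. The study's methods name filters on mitochondrial content and doublets without thresholds, so no cell filter was applied beyond the sets, no doublet caller was run, and doublets may remain. After its filters the study kept fewer cells than the 59202 barcodes at 0 h and 1586 at 48 h used here, and far fewer at 0 h. Most barcodes at 0 h were therefore not among the cells the study analysed.

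Mitochondrial UMIs came from 13 genes. A non-hepatocyte barcode needed at least 3 distinct markers and 5 UMIs of 1 class, at 10 times or more the share of that class in mitochondria-poor barcodes. The fixed minimum of 5 UMIs asks for a larger marker share in shallower barcodes. Median depth in mitochondria-poor barcodes was 1412 non-mitochondrial UMIs at 0 h and 5274 at 48 h. The set took in 1.31% of barcodes at 0 h and 8.13% at 48 h, and the part of this unlike stringency in its ratios was not tested. Levels had exact Poisson intervals, ratios exact conditional intervals and shares exact binomial (Clopper-Pearson) intervals, all at 95%. A count of 0 was set to 3 UMIs per library and set, so a ratio from such a count is a set value and not a lower bound. Without replicate libraries no p-value was computed, and the spread between mice is unknown. Total counts were 96118593 UMIs at 0 h and 18198719 at 48 h. Numbers were computed in Python 3.11.15 with numpy 2.4.6, scipy 1.17.1 and pandas 2.3.3, with TMM factors from edgeR 4.0.16 as an alternative scaling, and the ratio code was tested on simulated data. Coordinates came from GENCODE M21 of GRCm38, in which 44 of 44 gene identifiers matched, and promoters from RefSeq GRCm38.p6. The members and all lists were chosen with earlier results of these data known. All members are named, and of each other list the 3 highest ratios and the lowest in mitochondria-rich barcodes among genes with a mean of at least 5 CPM. Of the genes this rule names, 2 are not reported here. Alternatives were other totals, TMM, weighting barcodes equally, leaving out the deepest barcodes, added CPM, other mitochondrial and marker limits, other folds and other thinning depths. Bulk RNA-Seq and chromatin accessibility data of the study were not analysed here.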

Additional observations from a re-analysis of the deposited data

How the results depend on the processing

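Of 123 alternative values for 15 results, 90 stayed within the spread of the value given and 33 moved, and none changed direction. No paired analysis was possible because each group had 1 library. The median log2 ratio became 1.06 in mitochondria-rich, 1.05 in mitochondria-poor and 1.45 in non-hepatocyte barcodes with 10 CPM added to both levels, which lowers ratios of scarce genes, and 2.40 in mitochondria-poor barcodes with 1 CPM added. With 10 CPM added, 24 members in mitochondria-rich and 23 in mitochondria-poor barcodes were at least 2-fold higher, and the summed ratio was 5.53 in mitochondria-poor barcodes. The summed ratio in mitochondria-rich barcodes was 3.93 with all UMIs as the total, 3.95 without the 20 most abundant genes in the total, 3.22 with TMM factors, 4.39 without the deepest 10% of barcodes, 4.21 above 50% mitochondrial UMIs and 7.70 without Mcm10. In mitochondria-poor barcodes it was 4.93 without the 20 most abundant genes, 4.71 with TMM, 5.55 without the deepest 10% and 6.99 without Mcm10, and in non-hepatocyte barcodes 4.24 with all UMIs, 4.40 without the 20 most abundant genes, 4.20 with TMM and 5.49 at no more than 30% mitochondrial UMIs. Leaving out Mcm10 was chosen after seeing the data. The share of barcodes with at least 3 member UMIs, which depends on the depth by construction, was 0.0793%, 0.0153% and 0.257% at 0 h and 1.86%, 1.96% and 11.6% at 48 h when thinned to 500 UMIs (mitochondria-rich, mitochondria-poor, non-hepatocyte), and 1.09%, 0.426% and 11.8% at 0 h and 63.8%, 86.5% and 93.8% at 48 h without thinning. Apart from these constructions, the cause of the shifts was not tested. Depth limits the scarce members, since Cdc6, Asf1b, Chaf1b and Clspn had 1 UMI and Uhrf1 and Dtl none at 0 h in mitochondria-rich barcodes.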

Other observations

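Barcodes with 2 to 30% mitochondrial UMIs, 2277 at 0 h and 195 at 48 h, belonged to none of the 3 sets. In them the members summed to 193.7 CPM at 0 h and 969.7 CPM at 48 h (ratio 5.01, 4.62 to 5.42). The members with a ratio below 1 were Mcm10, with a log2 ratio of -0.37 (-0.71 to -0.03), and Pola1, with -0.10 (-1.82 to 1.46).

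The roles took different shares of the member UMIs at the 2 time points. In mitochondria-rich barcodes origin licensing and firing made up 50.5% at 0 h, most of it Mcm10, and 26.7% at 48 h, and nucleotide supply 11.6% and 27.0%. In mitochondria-poor barcodes licensing was 35.2% and 23.7% and nucleotide supply 16.8% and 31.3%. In non-hepatocyte barcodes licensing was 31.2% and 24.7% and nucleotide supply 13.6% and 23.1%. Mcm10 alone went from 41.2% to 4.11% in mitochondria-rich, 19.8% to 2.98% in mitochondria-poor and 7.68% to 0.918% in non-hepatocyte barcodes. In each set its share fell by more than the licensing share, so the lower licensing share at 48 h rested on this 1 gene.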
